A study of Mus musculus with 16 samples.

Results

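Tuft-like cells are rare chemosensory cells of mucosal epithelia that carry apical microvilli, and in the nose they lie scattered among the olfactory sensory neurons as microvillar cells and in the respiratory part as solitary chemosensory cells. Here 8 genes that mark these cells or their signalling were followed in cells sorted from the olfactory mucosa of mice: the transcription factor gene Pou2f3, the taste transduction genes Gnat3, Plcb2 and Trpm5, and the output genes Chat, Alox5, Ptgs1 and Il25. They were taken by symbol from a list proposed with earlier results of these data known, and no measured value enters the rule. Each of 7 of them matched 1 of the 22206 probe sets tested, of which 19572 carry 1 gene symbol, and Ptgs1 was not analysed here.

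All animals carried the reporter S100a5-tauGFP, which labels neurons through S100a5, a gene for a calcium-binding protein that depends on neuronal activity. The animals were 24 males and females aged 7 to 12 weeks, and they spent 40 h in individual chambers under clean air flowing at 3.1 L/min, and from 26 h a stimulus was pulsed for 10 s every 20 min. Mice were pooled by 3, and the dissociated mucosa of each of the 8 pools was sorted into a GFP+ and a GFP- fraction, so that the pool and not the mouse is the replicate. The 16 Clariom S arrays form 4 groups of 4: GFP+ cells of odor pools, GFP- cells of odor pools, GFP+ cells of vehicle pools and GFP- cells of vehicle pools. The odor was 1-pentanethiol by the series title and sample labels, although the design text names bourgeonal, and the vehicle was filtered air.

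In a tuft-like cell a ligand at a G-protein-coupled receptor, often of the taste receptor families, activates gustducin, a G protein whose alpha subunit is encoded by Gnat3. Plcb2 encodes the phospholipase that follows, inositol trisphosphate receptors then release calcium, and calcium opens the cation channel encoded by Trpm5. Pou2f3 is the transcription factor on which these cells depend. Their outputs include acetylcholine, made by choline acetyltransferase (Chat), leukotrienes made through 5-lipoxygenase (Alox5), and the interleukin encoded by Il25, an epithelial cytokine of type 2 immunity. Several of the 8 genes are known outside these cells too, Alox5 and Plcb2 in leukocytes and Trpm5 in a subset of olfactory sensory neurons.

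The start regions of these genes were read for the motif of the POU family of transcription factors, to which Pou2f3 belongs. RefSeq promoters of build GRCm38.p6, from 250 bases before to 50 bases after the annotated start, were matched for 6 of the 8 genes, Pou2f3 and Il25 being named here without a sequence. The octamer ATGCAAAT was searched on both strands and occurs in 1.74% of 32851 mouse promoters of this length (570), and in 0 of the 6. Its core TGCAAAT, which lies within the octamer, occurs in 4.02% (1321) and in 1 of the 6, the promoter of Chat, on the plus strand of the gene 20 bases before the start. The sequences shown are that of Chat, for this match, and those of Alox5, Trpm5 and Gnat3, the 3 genes with the lowest GFP+ signal relative to GFP- signal. Each is printed 5′ to 3′ along the strand of its gene, and capitals mark the core motif.
Chat, chr14:32465860-32466159, minus strand: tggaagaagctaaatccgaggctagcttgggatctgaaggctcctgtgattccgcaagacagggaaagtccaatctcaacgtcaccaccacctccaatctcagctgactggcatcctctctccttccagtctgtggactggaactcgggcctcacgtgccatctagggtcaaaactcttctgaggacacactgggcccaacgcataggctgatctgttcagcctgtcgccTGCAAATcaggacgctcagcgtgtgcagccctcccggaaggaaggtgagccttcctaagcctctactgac
Alox5, chr6:116461129-116461428, minus strand: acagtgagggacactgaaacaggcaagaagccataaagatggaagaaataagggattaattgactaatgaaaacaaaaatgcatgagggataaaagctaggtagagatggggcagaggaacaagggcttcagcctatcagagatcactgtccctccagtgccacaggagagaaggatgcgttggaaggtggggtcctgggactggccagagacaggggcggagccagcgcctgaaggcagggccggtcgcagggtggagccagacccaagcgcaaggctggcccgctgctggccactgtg
Trpm5, chr7:143094593-143094892, minus strand: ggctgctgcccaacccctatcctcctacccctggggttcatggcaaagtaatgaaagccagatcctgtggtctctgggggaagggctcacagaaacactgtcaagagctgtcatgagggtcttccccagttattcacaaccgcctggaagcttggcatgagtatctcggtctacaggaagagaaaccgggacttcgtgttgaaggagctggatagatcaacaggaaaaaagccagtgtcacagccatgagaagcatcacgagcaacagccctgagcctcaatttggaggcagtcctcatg
Gnat3, chr5:17962320-17962619, plus strand: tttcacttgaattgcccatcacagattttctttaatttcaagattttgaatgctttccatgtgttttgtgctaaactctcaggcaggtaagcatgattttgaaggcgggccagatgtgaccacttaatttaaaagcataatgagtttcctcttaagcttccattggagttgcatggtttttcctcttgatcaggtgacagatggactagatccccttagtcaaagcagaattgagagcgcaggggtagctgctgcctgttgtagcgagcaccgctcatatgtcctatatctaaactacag
A match is a run of letters and not a site of binding, and its absence says only that these letters are not in the 300 bases.

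The sorted fractions carried the signature of the reporter. S100a5 was higher in GFP+ than in GFP- cells by 0.99 ± 0.12 in odor pools (limma, SE, adjusted p = 7.79e-06) and by 0.87 ± 0.12 in vehicle pools (limma adjusted p = 3.51e-05), on the log2 scale of the deposited signals. The mean level of 8 markers of mature olfactory sensory neurons was 15.85 to 16.07 on the 8 GFP+ arrays and 15.77 to 15.84 on the 8 GFP- arrays. Omp, the classical marker of mature neurons, had group means of 18.27 to 18.35, near the highest deposited value of 18.85. It differed by 0.03 ± 0.10 and 0.05 ± 0.10 and did not pass (limma adjusted p = 0.841 and 0.742), while it passed as higher with array medians set equal (0.36 and 0.40) and turned to -0.037 and -0.18, not past the threshold, with odorant receptor medians set equal. Arrays of a group correlated with r of 0.984 to 0.995 across probe sets. Negative control entries, whose median stands here for nonspecific signal, had array medians of 6.24 to 6.48 and 6.04 to 6.10 on GFP+ and GFP- arrays of odor pools, and of 6.22 to 7.28 and 5.99 to 6.12 on those of vehicle pools. The highest, 7.28 on the GFP+ array of vehicle replicate 2, stands apart from the 6.22 to 6.38 of the other 3 arrays of its group. The 95th percentile of these entries was 9.98 to 10.2 on GFP- arrays. Trpm5 exceeded it on 2 of 4 GFP- arrays of each stimulus, and Alox5 on 2 of 4 of vehicle pools. Pou2f3, Gnat3, Plcb2, Chat and Il25 stayed under it on all arrays. A signal above the control median can thus still lie within the range of these entries.

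The first comparison asked how the signals of these genes differ between GFP+ and GFP- cells of the same stimulus. All 7 measured genes had lower signals in the GFP+ fraction, in each of 8 pools and without overlap between the groups. The drop passed the threshold of an adjusted p under 0.05 for 6 of 7 genes in odor pools, where 11.9% of all probe sets were called lower, and for 7 of 7 in vehicle pools, where 11.8% were. Over all probe sets, 2518 were called higher (11.3%) and 2649 lower in odor pools, and 2074 higher (9.34%) and 2617 lower in vehicle pools. That split depends on how arrays are scaled. Setting array medians equal gave 13098 higher and 2009 lower in odor pools, and 13003 higher and 2008 lower in vehicle pools. Quantile normalization gave 3594 higher and 2521 lower, and 3665 higher and 2501 lower. Setting the medians of odorant receptor probe sets equal gave 838 higher and 2437 lower, and 507 higher and 3280 lower. Groups without overlap and lower in GFP+ cells made up 12.3% and 12% of all probe sets in these sorts, and 10.3% were called lower in both. The median difference of the 7 genes was -1.90 in odor pools and -2.33 in vehicle pools, against 0.13 and 0.11 over all probe sets tested. In such bulk samples, fewer cells of a type and less RNA per cell cannot be told apart.

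**Figure D1:**
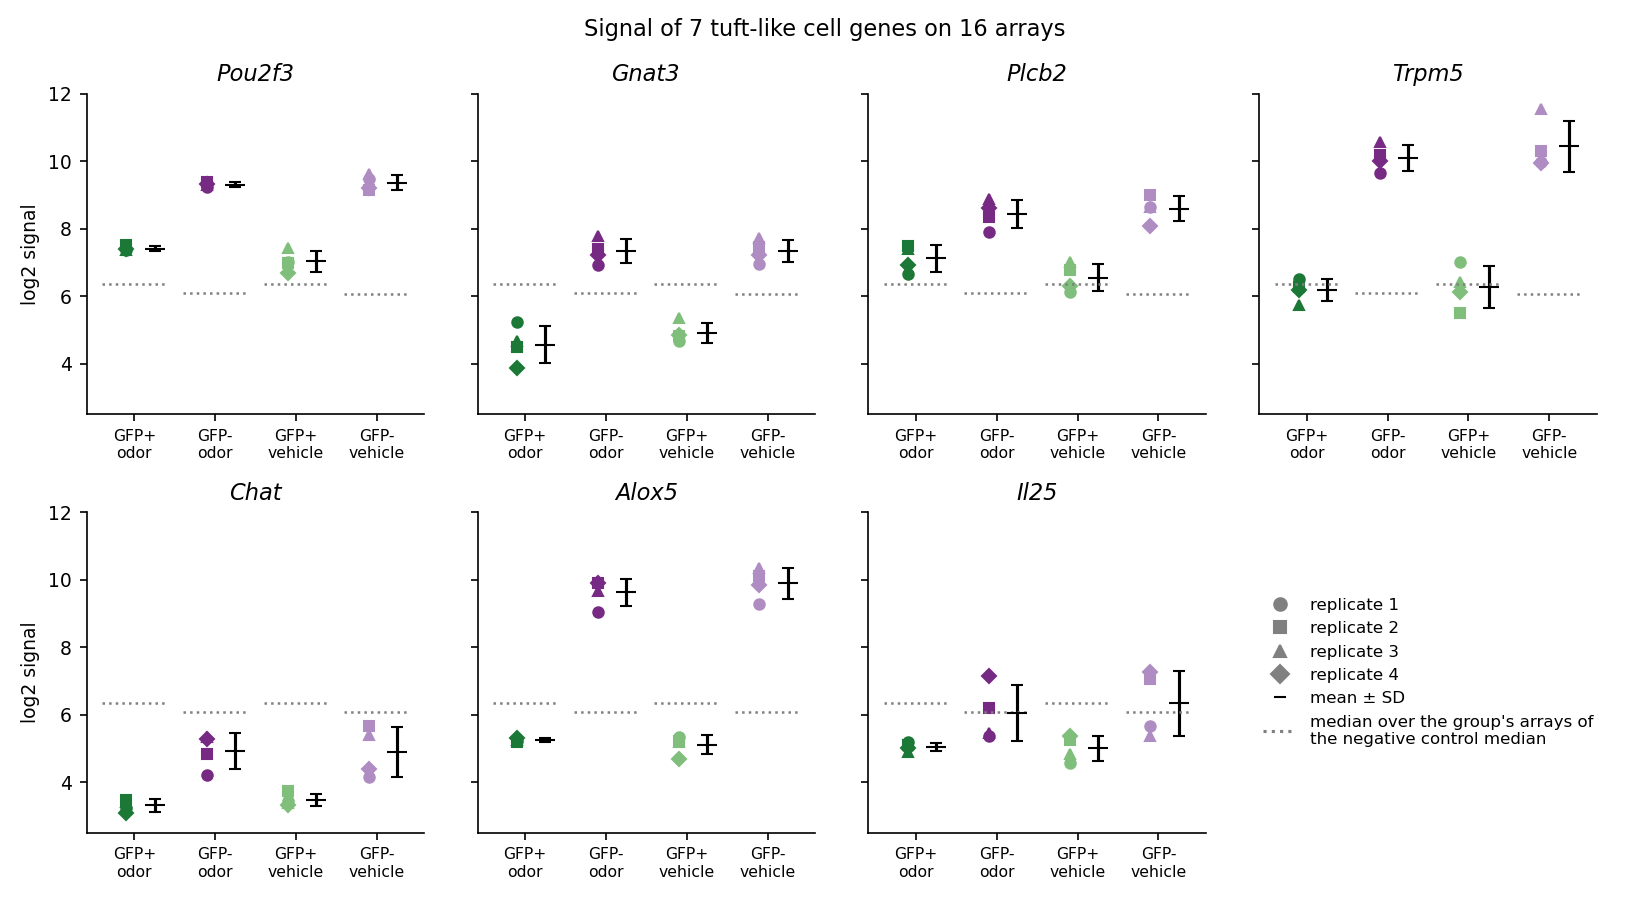
Deposited log2 signal (vertical axis) of the 7 genes on each of 16 arrays, in GFP+ and GFP- cells of odor pools and of vehicle pools, with the group mean ± SD beside the points and the replicate number as the symbol; the dotted line is the median over a group's arrays of the negative control median. Every GFP+ array lies under every GFP- array of the same stimulus for all 7 genes, and all arrays of Chat lie under the dotted line.

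Pou2f3, the transcription factor gene, had log2 signals of 7.36, 7.51, 7.36 and 7.38 in GFP+ cells against 9.22, 9.37, 9.28 and 9.33 in GFP- cells of odor replicates 1 to 4. In vehicle pools it had 7.02, 6.98, 7.43 and 6.69 in GFP+ cells against 9.47, 9.13, 9.62 and 9.21 in GFP- cells. The fractions were far apart in both stimuli, and the odor groups were tight, with SDs of 0.07 in GFP+ and 0.06 in GFP- cells. The difference was -1.90 ± 0.15 in odor pools (SE, 3.72-fold lower, limma adjusted p = 3.89e-08) and -2.33 ± 0.15 in vehicle pools (5.02-fold lower, limma adjusted p = 3.57e-09). Signals stayed above the negative control median on 4 of 4 GFP+ arrays of odor pools and 3 of 4 of vehicle pools, the exception being the array whose control entries stand apart.

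Gnat3, which encodes gustducin's alpha subunit, had signals of 5.23, 4.48, 4.67 and 3.88 in GFP+ cells against 6.91, 7.40, 7.78 and 7.23 in GFP- cells of odor pools. In vehicle pools it had 4.66, 4.83, 5.35 and 4.85 in GFP+ cells against 6.96, 7.45, 7.71 and 7.22 in GFP- cells. All 8 GFP+ arrays were under their negative control median and all 8 GFP- arrays above it. The difference was -2.76 ± 0.25 in odor pools (SE, limma adjusted p = 2.66e-07) and -2.41 ± 0.25 in vehicle pools (limma adjusted p = 1.37e-06). Against the negative control median of the GFP+ arrays, which is above their own signal, GFP- cells were at least 1.96-fold higher in odor pools and at least 1.72-fold higher in vehicle pools.

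Plcb2, the phospholipase gene of the cascade, had signals of 6.66, 7.49, 7.39 and 6.92 in GFP+ cells against 7.89, 8.36, 8.88 and 8.60 in GFP- cells of odor pools. In vehicle pools the signals were 6.12, 6.76, 7.00 and 6.31 in GFP+ cells against 8.62, 8.99, 8.65 and 8.09 in GFP- cells. The gap between fractions was narrow in odor pools, 7.49 against 7.89 at its closest, and wider in vehicle pools. The difference was -1.32 ± 0.25 in odor pools (SE, 2.49-fold lower, limma adjusted p = 0.000961) and -2.04 ± 0.25 in vehicle pools (4.11-fold lower, limma adjusted p = 9.75e-06). GFP+ signals were above the negative control median on 4 of 4 arrays of odor pools and 1 of 4 of vehicle pools. The fold in vehicle pools is thus taken against signals at the level of the controls.

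Trpm5, the channel gene, had signals of 6.51, 6.27, 5.74 and 6.20 in GFP+ cells against 9.63, 10.19, 10.56 and 10.01 in GFP- cells of odor pools. In vehicle pools it had 7.01, 5.51, 6.43 and 6.11 in GFP+ cells against 9.97, 10.30, 11.54 and 9.93 in GFP- cells. GFP+ signals lay around the negative controls, above their median on 1 of 4 arrays of odor pools and 2 of 4 of vehicle pools, while replicate 3 of the vehicle pools was the highest GFP- array. The difference was -3.92 ± 0.34 in odor pools (SE, 15.1-fold lower, limma adjusted p = 1.56e-07) and -4.17 ± 0.34 in vehicle pools (18.0-fold lower, limma adjusted p = 7.55e-08). Both folds are taken against GFP+ signals at the level of the controls. In single pools the difference ran from -5.11 to -2.96.

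Chat, the gene for the enzyme that makes acetylcholine, had signals of 3.24, 3.48, 3.42 and 3.09 in GFP+ cells against 4.21, 4.84, 5.34 and 5.29 in GFP- cells of odor pools. In vehicle pools it had 3.43, 3.73, 3.38 and 3.33 in GFP+ cells against 4.16, 5.65, 5.39 and 4.39 in GFP- cells. All 16 values lie under the negative control median of their array, GFP- cells included, so the level of this probe set is not separated from nonspecific signal, although its groups do not overlap. The difference was -1.62 ± 0.29 in odor pools (SE, limma adjusted p = 0.000534) and -1.43 ± 0.29 in vehicle pools (limma adjusted p = 0.00158), and no fold is given for it.

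Alox5, the gene of 5-lipoxygenase, had signals of 5.22, 5.18, 5.26 and 5.30 in GFP+ cells against 9.04, 9.89, 9.67 and 9.89 in GFP- cells of odor pools. In vehicle pools it had 5.34, 5.21, 5.18 and 4.69 in GFP+ cells against 9.29, 10.10, 10.34 and 9.83 in GFP- cells. All GFP+ arrays were under and all GFP- arrays above their negative control median. Alox5 had the largest difference of the 7 genes, -4.38 ± 0.22 in odor pools (SE, limma adjusted p = 2.70e-10) and -4.78 ± 0.22 in vehicle pools (limma adjusted p = 1.07e-10). Against the negative control median of the GFP+ arrays, the signal in GFP- cells was at least 9.61-fold higher in odor pools and at least 10.1-fold higher in vehicle pools. Only 0.698% and 0.509% of all probe sets had a lower difference in the odor and vehicle sorts, against 1.07% and 0.851% for Trpm5 and 7.69% and 6.07% for Il25.

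Il25, the cytokine gene, had signals of 5.18, 5.11, 4.89 and 5.01 in GFP+ cells against 5.38, 6.20, 5.44 and 7.15 in GFP- cells of odor pools. In vehicle pools it had 4.57, 5.24, 4.85 and 5.37 in GFP+ cells against 5.65, 7.05, 5.38 and 7.25 in GFP- cells. The GFP- arrays fell apart by replicate number, higher in replicates 2 and 4 (6.20 to 7.25) than in replicates 1 and 3 (5.38 to 5.65) of both stimuli, and 2 of 4 of each stimulus exceeded the negative control median. The difference of -0.99 ± 0.41 in odor pools (SE, 95% interval -1.85 to -0.14) did not pass (limma adjusted p = 0.0892), but passed with the pool of mice as a block (limma adjusted p = 0.0356) and with the replicate number as a block (limma adjusted p = 0.0205). The difference of -1.33 ± 0.41 in vehicle pools (limma adjusted p = 0.0268) passed, with no fold given since all GFP+ arrays are under the negative controls. It was lost without GFP+ vehicle replicate 1 (adjusted p = 0.0730) or 3 (0.0604) and without GFP- vehicle replicate 2 (0.0934) or 4 (0.0954).

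**Figure D2:**
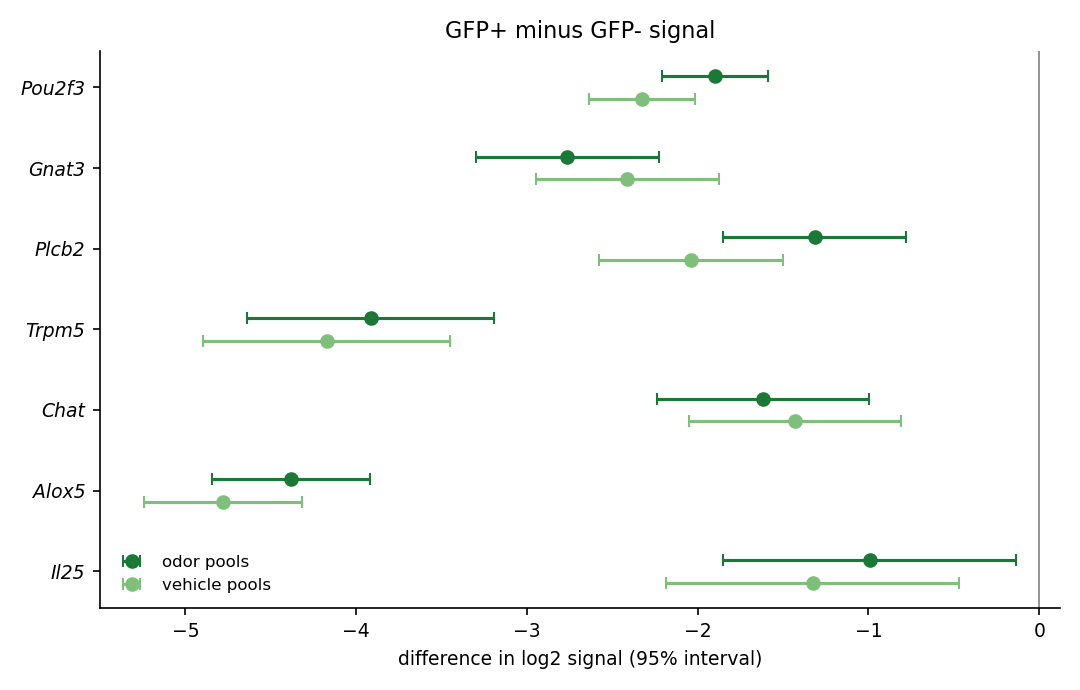
Difference of GFP+ minus GFP- log2 signal (horizontal axis) with its 95% interval from limma for the 7 genes in odor pools and in vehicle pools, with n = 4 arrays per group. The intervals of Alox5 and Trpm5 lie furthest from 0, and that of Il25 in odor pools, from -1.85 to -0.14, comes nearest.

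Pool by pool, the 8 differences of Alox5 ran from -5.16 to -3.82 with a median of -4.65, and those of Trpm5 had a median of -3.87. Gnat3 had a median of -2.50 and Pou2f3 of -2.05, with Pou2f3 confined to -2.52 to -1.86. The medians of Plcb2 and Chat were -1.66 and -1.64, with ranges of -2.50 to -0.87 and -2.20 to -0.73. Il25 had a median of -1.09 and ranged from -2.13 to -0.20. The 95% intervals of neighbours in this order overlapped in both stimuli for Alox5 with Trpm5, Pou2f3 with Plcb2, Plcb2 with Chat and Chat with Il25. They overlapped in odor pools alone for Trpm5 with Gnat3 and in vehicle pools alone for Gnat3 with Pou2f3. These gaps between probe sets were not tested.

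The second comparison asked whether the odor moved these genes. None of the 7 passed between odor and vehicle pools in GFP+ cells, where 0.0766% of all probe sets (17) were called, or in GFP- cells, where 0.0495% (11) were called. The test of whether the sort difference itself changed with the odor called 0 of 7 (0.063% of all probe sets, 14). At an unadjusted p under 0.05, limma gave 2 of 7 in GFP+ cells, against 7.15% of all probe sets, 0 of 7 in GFP- cells, against 2.61%, and 0 of 7 for the change of the sort difference, against 4.65%. Groups without overlap made up 2.86% of all probe sets in GFP+ and 2.61% in GFP- cells, and 0 of the 7 genes had such groups in either fraction.

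The 2 genes with an unadjusted p under 0.05 in GFP+ cells were Pou2f3 and Plcb2. Pou2f3 averaged 7.40 ± 0.07 in odor and 7.03 ± 0.31 in vehicle pools (SD, n = 4 each), a difference of 0.37 with a 95% interval of 0.06 to 0.68 (limma, unadjusted p = 0.0222, adjusted p = 0.631). Plcb2 averaged 7.11 ± 0.39 in odor and 6.55 ± 0.41 in vehicle pools (SD, n = 4 each), a difference of 0.57 with an interval of 0.03 to 1.10 (limma, unadjusted p = 0.0404, adjusted p = 0.674). In vehicle pools its GFP+ signal exceeded the negative control median on 1 of 4 arrays. Both genes have sort differences nearer to 0 in odor than in vehicle pools, by 0.43 (interval -0.01 to 0.87) for Pou2f3 and 0.72 (interval -0.04 to 1.49) for Plcb2, neither past the threshold (limma, both with adjusted p = 0.999).

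The other 5 genes differed in GFP+ cells by -0.36 (Gnat3, interval -0.89 to 0.18) to 0.14 (Alox5, interval -0.33 to 0.60). Trpm5 differed by -0.08 (interval -0.81 to 0.64), Chat by -0.16 (interval -0.78 to 0.46) and Il25 by 0.04 (interval -0.82 to 0.90). In GFP- cells, where the signals of these genes are higher, the differences ran from -0.34 for Trpm5 (interval -1.06 to 0.38) to 0.02 for Chat (interval -0.60 to 0.65). Alox5 differed there by -0.26 (interval -0.73 to 0.20) and Il25 by -0.29 (interval -1.15 to 0.57). Pou2f3 had the tightest bound, a difference of -0.06 with an interval of -0.37 to 0.25, and Gnat3 one of -0.0035 with an interval of -0.54 to 0.53. With 4 pools per stimulus, shifts within these intervals are not excluded, and no limit of detection was computed.

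**Figure D3:**
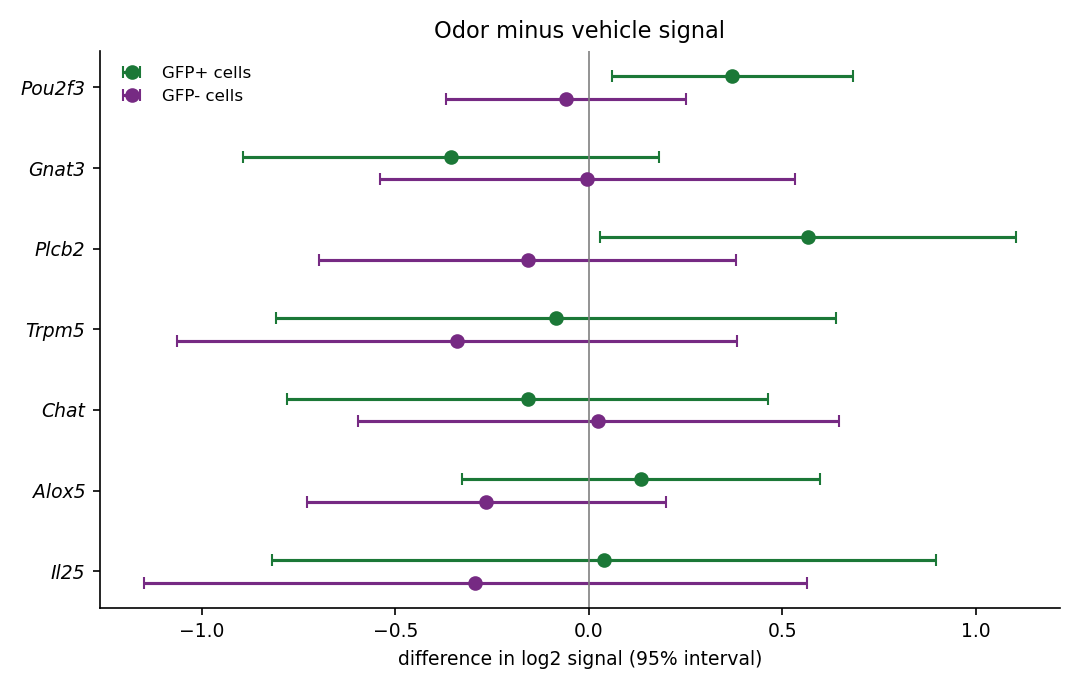
Difference of odor minus vehicle log2 signal (horizontal axis) with its 95% interval from limma for the 7 genes in GFP+ and in GFP- cells, with n = 4 arrays per group. The intervals of Pou2f3 and Plcb2 in GFP+ cells lie above 0 before adjustment, and the other 12 include 0.

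Among the GFP- arrays some highest or lowest signals fell in the same replicate number of odor and vehicle pools, and others did not. Trpm5 and Gnat3 were highest in replicate 3 of both stimuli, at 10.56 and 11.54 for Trpm5 and 7.78 and 7.71 for Gnat3. Replicate 1 was lowest in both stimuli for Gnat3 (6.91 and 6.96), Alox5 (9.04 and 9.29) and Chat (4.21 and 4.16). Il25 had 6.20 and 7.05 in replicate 2 and 7.15 and 7.25 in replicate 4, against 5.38 to 5.65 in replicates 1 and 3. Plcb2 and Pou2f3 had both their highest and their lowest signals in different replicate numbers of odor and vehicle pools. So did Alox5 and Chat for the highest signal, and Trpm5 and Il25 for the lowest. Across all probe sets, deviations from the group mean of same-numbered GFP- arrays correlated with r of 0.186 to 0.290.

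Of the 21 pairs of the 7 genes, 17 had a positive Pearson's r over the 8 GFP- arrays. Trpm5 and Gnat3 had r = 0.81 (exact permutation p = 0.0036, adjusted over 21 pairs p = 0.0755) and Spearman's rho = 0.952 (exact permutation p = 0.00114, adjusted p = 0.0240), and r was 0.924 without the 2 arrays farthest from the median of Trpm5. No pair had an adjusted p under 0.05 by Pearson's r. The 8 arrays share replicate numbers between stimuli, and 4 arrays per stimulus are too few for a correlation within each.

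**Figure D4:**
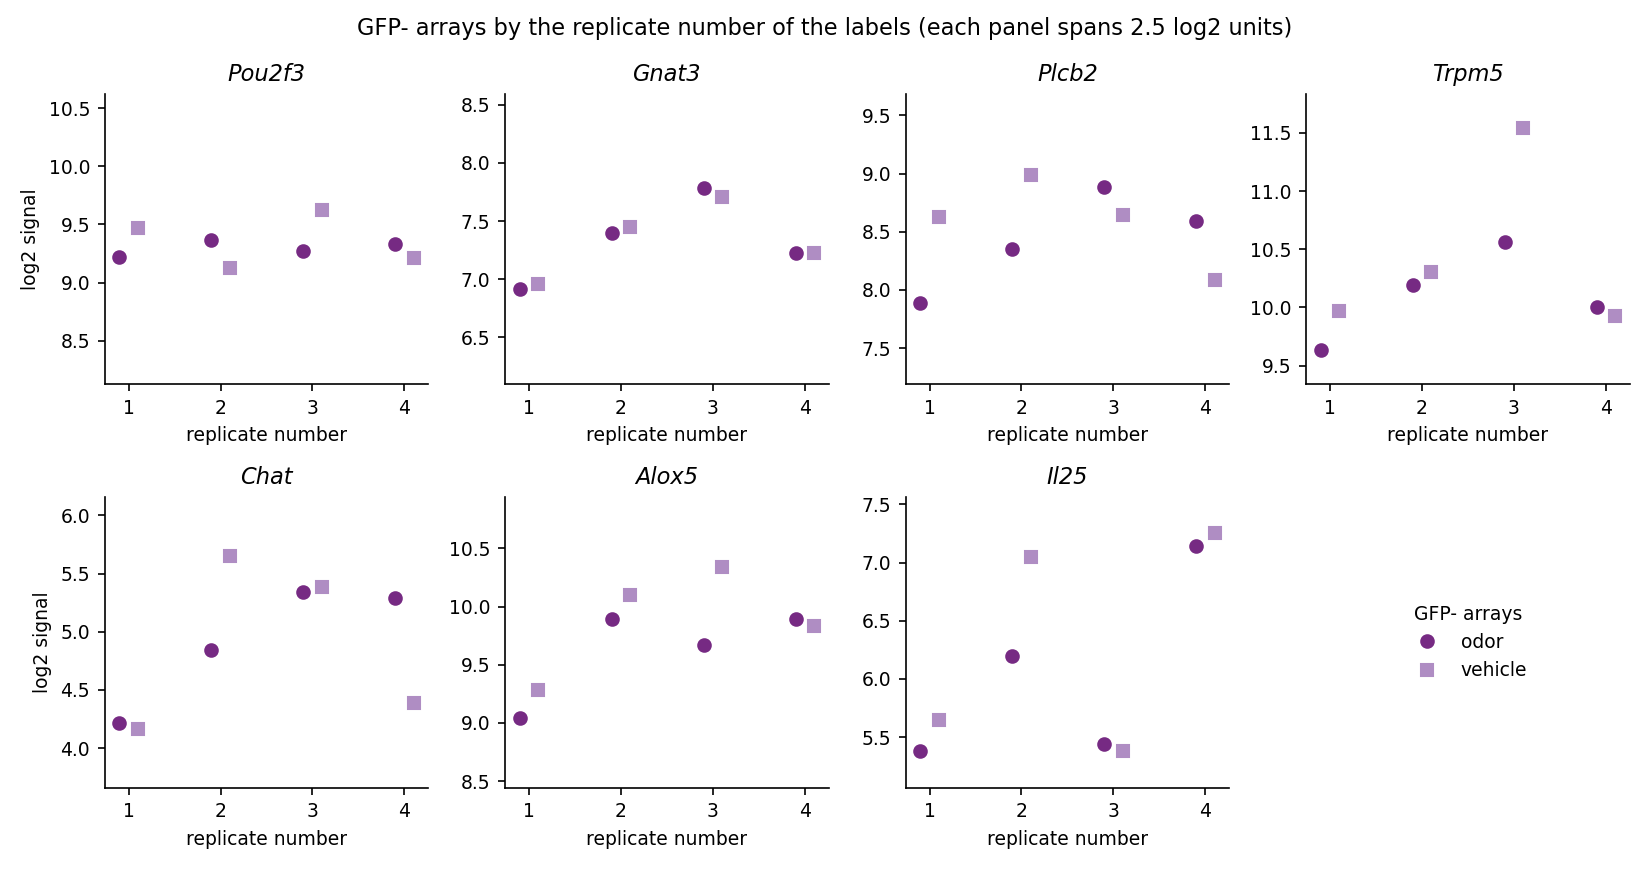
Log2 signal (vertical axis) of the 7 genes on the GFP- arrays by the replicate number of the labels (horizontal axis), odor pools as circles and vehicle pools as squares; each panel spans 2.5 log2 units. Il25 is high in replicates 2 and 4 of both stimuli, and Trpm5 and Gnat3 peak in replicate 3.

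Other genes of the same cells and pathways were taken as lists, with the 7 genes left out of them. Of 7 other genes listed for transcriptional control in tuft cells, 6 were lower in GFP+ cells of odor pools and 7 of vehicle pools, with medians of -3.49 and -3.39. The largest differences were those of 1810046K07Rik, -4.31 ± 0.22 and -4.44 ± 0.22 in odor and vehicle pools, and of Spib, an ETS factor gene also active in B cells, -4.09 ± 0.24 and -3.83 ± 0.24. Sox9, a progenitor and gland factor gene, differed by -3.57 ± 0.26 and -3.64 ± 0.26, and Runx1, of the RUNX family, by -3.49 ± 0.22 and -3.39 ± 0.22. Gfi1b, a zinc finger repressor gene, differed by -2.08 ± 0.22 and -2.24 ± 0.22. Hmx3, at levels under the negative controls, did not pass in odor pools (-0.40 ± 0.18, limma adjusted p = 0.118) and passed in vehicle pools (-0.54 ± 0.18, adjusted p = 0.0382). That call was lost with array medians set equal (-0.19, adjusted p = 0.337) and without GFP+ vehicle replicate 2 (-0.53, adjusted p = 0.0651), and Hmx3 passed in odor pools with quantile normalization (-0.46, adjusted p = 0.0489).

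Of 21 other markers of tuft and microvillar cells, 15 were lower in GFP+ cells of odor pools and 17 of vehicle pools, and the medians were -1.65 and -1.85. None was called higher, against 2 in each sort with array medians set equal and 1 in each with quantile normalization. Cd24a, which encodes a surface glycoprotein also found on neuroblasts and leukocytes, had the largest difference, -6.01 ± 0.26 and -5.97 ± 0.26. Lrmp, of an endoplasmic reticulum membrane protein, differed by -4.36 ± 0.20 and -4.15 ± 0.20, Sh2d7, of an SH2 domain protein, by -3.69 ± 0.21 and -3.91 ± 0.21, and the kinase gene Bmx by -3.58 ± 0.33 and -3.69 ± 0.33. The epithelial keratin genes Krt18 (-2.71 ± 0.28 and -2.60 ± 0.28) and Krt8 (-2.19 ± 0.27 and -1.89 ± 0.27) and the actin bundler gene Avil (-1.49 ± 0.26 and -1.71 ± 0.26) were lower too. Dclk1, the kinase gene used to mark intestinal tuft cells, had 9.36 in GFP+ and 9.13 in GFP- cells of odor pools and 8.57 and 9.26 in those of vehicle pools, and did not pass in either (0.23 ± 0.25 and -0.69 ± 0.25, limma adjusted p = 0.542 and 0.0631), although it passed in vehicle pools with odorant receptor medians set equal (-0.92, adjusted p = 0.0120). The microvillar protein gene Vil1 had 0.21 ± 0.18 and 0.22 ± 0.18, and did not pass.

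The partners of Gnat3, Plcb2 and Trpm5 in taste transduction were called in both directions. Most lay under the negative controls, 36 to 39 of 48 probe sets in each group, and Itpr3 was not measured. Of the 13 partners other than bitter receptor genes, 3 were lower and 1 was higher in each sort, with medians of 0.06 and -0.07. Of 48 probe sets, 4 were lower in each sort, and 8 were higher in odor and 3 in vehicle pools, with medians of 0.21 and 0.17. These are shares of 8.33% lower, and 16.7% and 6.25% higher, beside the 11.9% and 11.8% lower and 11.3% and 9.34% higher of all probe sets. Without GFP+ vehicle replicate 2 the 3 higher in vehicle pools became 1. The 4 lower in both were Rgs13, a regulator of G-protein signalling (-3.63 ± 0.22 and -4.02 ± 0.22), the phospholipase gene Plcg2 (-2.82 ± 0.26 and -2.89 ± 0.26), the inositol trisphosphate receptor gene Itpr2 (-2.38 ± 0.18 and -2.03 ± 0.18) and the bitter receptor gene Tas2r108 (-1.21 ± 0.23 and -0.80 ± 0.23). Tas2r108 was the 1 of 35 bitter receptor genes called lower, with 7 higher in odor and 2 in vehicle pools, and its call in vehicle pools was lost with array medians set equal (-0.45, adjusted p = 0.0894) and with quantile normalization (-0.56, adjusted p = 0.0834). The median signal of the bitter receptor genes, 4.54 and 3.98 in GFP+ and GFP- cells of odor pools, lay under the negative controls. The count of higher bitter receptor genes was 28 and 24 when array medians were set equal, and 2 and 0 with odorant receptor medians set equal, where their median in vehicle pools turned to -0.02 and that of all 48 to -0.06. The gustducin partners Gnb3 (-0.04 ± 0.14 and 0.17 ± 0.14) and Gng13 (0.16 ± 0.13 and 0.13 ± 0.13), which olfactory neurons also express, did not pass.

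Other acetylcholine genes lay nearer to 0 than Chat, itself under the negative controls on all arrays. Of 10 probe sets for transport, breakdown and receptors, 0 were lower in either sort, 0 were higher in odor pools and 2 in vehicle pools, with medians of 0.29 and 0.28. Over all probe sets 11.9% and 11.8% were lower and 11.3% and 9.34% higher, so that counts this small in 10 probe sets say little. Slc18a3, whose protein loads acetylcholine into vesicles, had 3.42 in GFP+ and 3.21 in GFP- cells of odor pools and 3.32 and 3.10 in those of vehicle pools, and did not pass. The choline transporter gene Slc5a7 had 0.45 ± 0.20 in odor pools (limma adjusted p = 0.108) and 0.57 ± 0.20 in vehicle pools (adjusted p = 0.0488), and the muscarinic receptor gene Chrm4 0.49 ± 0.23 (adjusted p = 0.136) and 0.74 ± 0.23 (adjusted p = 0.0283). Both vehicle calls were lost when odorant receptor medians were set equal (0.34 for Slc5a7, adjusted p = 0.424, and 0.50 for Chrm4, adjusted p = 0.321) and without GFP+ vehicle replicate 2 (adjusted p = 0.0986 and 0.0870), and that of Slc5a7 with quantile normalization (adjusted p = 0.107). For the muscarinic receptor gene Chrm1 the differences were 0.38 ± 0.15 and 0.41 ± 0.15, neither past the threshold. Of the 10 probe sets, 9 had group means under the negative controls in each group. With array medians set equal 8 and 7 of the 10 were called higher. In vehicle pools 1 was called lower with quantile normalization, with odorant receptor medians set equal and without GFP+ vehicle replicate 2, beside 1, 0 and 3 higher.

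Around Alox5, 9 of 14 eicosanoid genes were lower in GFP+ cells of odor pools and 8 of vehicle pools, with medians of -0.99 and -0.91. Alox5ap, whose protein presents arachidonic acid to 5-lipoxygenase, differed by -3.48 ± 0.34 and -3.80 ± 0.34, and Pla2g4a, the phospholipase gene that releases that acid, by -2.69 ± 0.31 and -3.47 ± 0.31. Ltc4s, for the synthase of cysteinyl leukotrienes, differed by -1.47 ± 0.21 and -1.87 ± 0.21. Ptgs2, the inducible counterpart of Ptgs1, differed by -3.14 ± 0.92 and -3.72 ± 0.92 (limma adjusted p = 0.0210 and 0.00709), with the largest SE of the genes named here. Hpgds, for a prostaglandin D synthase also known from mast cells, differed by -1.02 ± 0.21 and -0.92 ± 0.21. The prostacyclin synthase gene Ptgis was called higher in odor pools (0.44 ± 0.15, limma adjusted p = 0.0404) and not in vehicle pools (0.12 ± 0.15). That call was lost with odorant receptor medians set equal (0.37, adjusted p = 0.315), and with array medians set equal 3 genes of the list were higher in odor and 4 in vehicle pools.

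Around Il25, 4 of 9 genes of the type 2 cytokine axis were lower in each sort, all of them receptor subunit genes. Il17rb, of the receptor for the Il25 product and itself a tuft cell marker, differed by -3.03 ± 0.23 in odor and -2.59 ± 0.23 in vehicle pools, and Il17ra, its partner, by -2.36 ± 0.26 and -2.39 ± 0.26. Il13ra1 differed by -2.82 ± 0.26 and -2.93 ± 0.26 and Il4ra by -0.41 ± 0.10 and -0.42 ± 0.10. The calls of Il4ra were lost when array medians were set equal (-0.085 in odor pools, adjusted p = 0.462, and -0.073 in vehicle pools, adjusted p = 0.530), and in odor pools with odorant receptor medians set equal (-0.48, adjusted p = 0.0780). The epithelial cytokine genes Il33 (0.02 ± 0.19 and 0.22 ± 0.19) and Tslp (0.47 ± 0.26 and -0.26 ± 0.26) did not pass. Il13 was called higher in odor pools (0.58 ± 0.18, limma adjusted p = 0.0304; vehicle pools 0.24 ± 0.18), at levels of 5.74 and 5.16 in GFP+ and GFP- cells that lie under the negative controls. Its call was lost with odorant receptor medians set equal (0.51, adjusted p = 0.157), and it passed in vehicle pools too with array medians set equal (0.59, adjusted p = 0.0113). The list's median of 0.01 in odor pools turned to -0.06 with odorant receptor medians set equal and -0.19 with quantile normalization, and that of -0.26 in vehicle pools to 0.09 with array medians set equal.

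Between odor and vehicle pools, 0 of the 108 probe sets of these 6 lists passed limma's adjusted threshold in GFP+ cells, in GFP- cells or as a change of the sort difference. At an unadjusted p under 0.05 there were 12 in GFP+ cells, 1 in GFP- cells and 7 for the change, which is 11.1%, 0.926% and 6.48% of them, beside 7.15%, 2.61% and 4.65% of all probe sets.

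Markers of other cell types fell in the same GFP+ arrays, and their part in the differences of the 7 genes was not tested. All 11 neutrophil markers passed as lower in both sorts, at a median of -7.51 and -7.80, and their mean level was 6.87 to 7.90 on GFP+ and 13.78 to 14.94 on GFP- arrays of odor pools and 6.67 to 7.72 and 14.42 to 14.96 on those of vehicle pools. Lcn2, of a neutrophil granule protein, had the largest difference of that list in each sort, -8.44 ± 0.45 and -8.45 ± 0.45. Of 9 mast cell and basophil markers, 5 were lower in each sort, at list medians of -1.34 and -1.09. The largest differences were those of the histidine decarboxylase gene Hdc (-3.94 ± 0.43 and -3.91 ± 0.43) and of the receptor gene Kit, which dividing precursors also use (-3.24 ± 0.29 and -3.54 ± 0.29). With array medians set equal 2 of the 9 were higher in odor and 3 in vehicle pools, and 5 stayed lower in each. The mean level of that list was 5.43 to 5.90 on GFP+ and 6.89 to 7.51 on GFP- arrays of odor pools and 5.50 to 5.62 and 6.92 to 7.26 on those of vehicle pools, and 4 of the 9 stayed under the negative controls in GFP- cells. Of 9 macrophage markers 4 were lower in each sort, at list medians of -0.47 and -0.37. Tyrobp had the largest difference of that list (-4.06 ± 0.31 and -3.96 ± 0.31). With array medians set equal 1 macrophage marker was higher in each sort, and the list median in vehicle pools was -0.023. All 4 B lymphocyte markers were lower in both sorts, as were 6 of 7 markers of T and innate lymphoid cells and both erythroid markers. The mean levels of the macrophage markers were 7.59 to 7.76 on GFP+ and 8.42 to 9.22 on GFP- arrays of odor pools. None of 5 platelet markers was called in either sort, although 3 were higher in each with array medians set equal, 1 in each with quantile normalization, and 1 in odor pools without GFP+ vehicle replicate 2.

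Ionocyte-like microvillar cells, the other microvillar cell type of this epithelium, had 7 of 8 markers called lower in both sorts, and the list medians were -3.09 and -2.88. Their mean level was 7.05 to 7.29 on GFP+ and 9.31 to 10.32 on GFP- arrays of odor pools and 7.09 to 7.31 and 9.31 to 10.17 on those of vehicle pools. Stap1, of a signalling adaptor, differed by -3.92 ± 0.24 and -4.09 ± 0.24, and Foxi1, the ionocyte transcription factor gene, by -3.31 ± 0.34 and -3.21 ± 0.34. Of 5 globose basal and cycling cell markers 4 were lower in each sort, among them Mki67 (-5.73 ± 0.31 and -5.73 ± 0.31), and of 5 immature neuron markers 3 were. Sustentacular markers were lower in 2 of 6 and 1 of 6 cases, those of Bowman's glands and respiratory epithelium in 1 of 5, which is Sox9, those of horizontal basal cells in 0 of 4 and 1 of 4, and those of guanylate cyclase D neurons in 2 of 5. Over all probe sets 11.9% were lower in odor and 11.8% in vehicle pools, so that counts of 0 or 1 in such short lists say little. Without GFP+ vehicle replicate 2 the sustentacular count was 3 of 6 in each sort, and the list median in vehicle pools was -0.59 instead of -0.31. With array medians set equal the sustentacular count was 1 in each sort and that of horizontal basal cells 0, with 3 and 2 of the 4 horizontal basal cell markers higher. That setting also called 1 of 8 ionocyte-like, 1 of 5 Bowman's gland and 2 of 5 guanylate cyclase D neuron markers higher in each sort. In odor and vehicle pools it called higher 1 and 2 of 5 immature neuron, 1 and 0 of 5 globose basal and 1 and 0 of 6 sustentacular markers. Of the 8 mature neuron markers, 2 were higher in odor and 1 in vehicle pools, beside 11.3% and 9.34% of all probe sets. With array medians set equal 8 of 8 were higher in each sort, at medians of 0.45 and 0.53. With odorant receptor medians set equal 1 and 0 were, and the median in vehicle pools turned to -0.051.

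**Figure D5:**
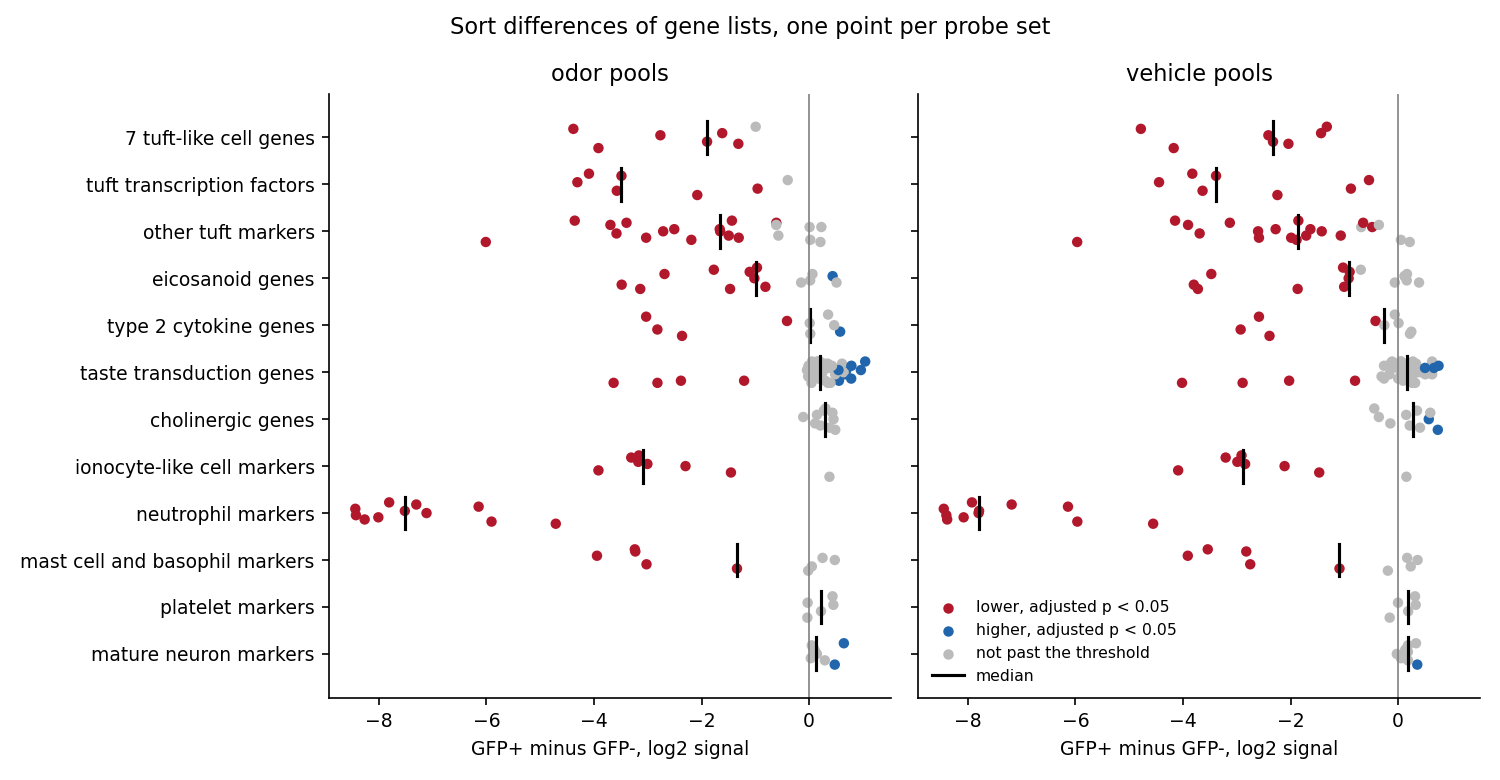
Difference of GFP+ minus GFP- log2 signal (horizontal axis) for each probe set of the 7 genes and of 11 lists, in odor pools (left) and vehicle pools (right), with the list median as a bar; red marks lower and blue higher at an adjusted p under 0.05. The neutrophil markers lie furthest below 0, with medians of -7.51 and -7.80, and taste transduction and acetylcholine genes lie mostly near 0.

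For each of the 7 genes the most similar profiles over the 16 arrays were found by the root mean square difference of signals, each gene centred on its own mean. Nearest to Trpm5 were Atp2a3, of a calcium pump of the endoplasmic reticulum, at 0.299, Rgs13 at 0.392, the transcription factor gene Myb at 0.395, Sh2d7 at 0.400 and Anxa4, of a calcium-dependent membrane binder, at 0.405, where the median over all probe sets was 2.16. Casp8, Lrmp and Spib followed at 0.464, 0.466 and 0.496. These 8 genes had sort differences of -4.36 to -3.63 in odor and -4.45 to -3.83 in vehicle pools, near those of Trpm5 because this distance selected them. Alox5 was nearest to Lrmp (0.299), the actin bundler gene Lcp1 (0.314), known from leukocytes, and 1810046K07Rik (0.316).

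Pou2f3 was nearest to Grp, for a bombesin-like peptide, at 0.218, followed by Tmsb10 at 0.243 and Armcx3 at 0.247. Gnat3 was nearest to the neuronal factor gene Nhlh2 at 0.260, and Plcb2 to Sun2 at 0.291 and the T lymphocyte marker gene Cd3e at 0.303. Chat was nearest to Esyt1 at 0.310 and Il25 to Nfkbiz at 0.327. Among the 7 genes themselves the closest pair was Pou2f3 and Plcb2 at 0.399, then Chat and Plcb2 at 0.422 and Trpm5 and Alox5 at 0.488. The farthest was Il25 and Alox5 at 1.81. The split into GFP+ and GFP- arrays enters every such distance, so that genes with sort differences of like size come out close.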

How the data were processed

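RNA of GFP+ and GFP- cells of 8 pools was measured on 16 arrays. The authors deposited log2 signals per probe set, for which the submitters' processing notes name Affymetrix Expression Console; version, algorithm and normalization: not given in the sources used here. Of 28846 features, 22206 were tested, and 5222 negative control entries served as a check. Values were used as deposited, with no filter. Group means were fitted with limma 3.58.1 in R 4.3.3 (lmFit and eBayes, total degrees of freedom 16.66) over all 16 arrays, and 5 two-sided comparisons were adjusted by Benjamini-Hochberg over 22206 probe sets, with a threshold of 0.05. The procedure was tested on simulated data. Fold changes are 2 to the power of the log2 difference. Precision is limited by the number of arrays.

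The reported fit has no block. GFP+ and GFP- arrays of a pool come from the same mice, and their deviations from group means correlated with r of 0.0119 to 0.224, over 0.1 in 5 of 8 pools. Same-numbered arrays of odor and vehicle pools correlated with r over 0.1 in 4 of 4 pairs of GFP- and 2 of 4 of GFP+ arrays.

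Genes were named through the platform annotation, and the 6 pathway and 15 cell type lists and the members were chosen with earlier results of these data known. Genes to name were those of a list with the largest differences past the threshold in both sorts. Where fewer than 2 passed, those with the smallest p were taken. Not every gene so chosen is named here, and several cell type lists are given by counts alone. Gfi1b, Hmx3, Krt8, Krt18, Avil, Dclk1, Vil1, Gnb3, Gng13, Slc18a3, Chrm4, Hpgds, Ptgis, Il33, Tslp and Il13 were added after their values were seen. Likeness used the lowest root mean square distances, up to 8 for Trpm5 and 3 for the other genes. Alternatives were array medians, odorant receptor medians or quantiles set equal, a filter on dim probe sets, blocks, an intensity trend, array weights and leaving out each array; the lists were rerun under the scalings and without the array of outlying controls, a choice made after seeing the data.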

Additional observations from a re-analysis of the deposited data

Results flagged for a closer look

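On the GFP+ array of vehicle replicate 2, negative control entries reached a median of 7.2805, far from the 6.22 to 6.38 on the other 3 arrays of that group, at 0.844 of the group's range from its nearest neighbour, above the 95% critical value of Dixon's test. This was the 1 such case in 32 groups of 4 values examined, and chance alone marks about 1 in 20. Without this array the count of genes called lower stayed at 6 of 7 in odor pools and 7 of 7 in vehicle pools.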

How the results depend on the processing

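All 7 genes kept the lower signal in GFP+ cells in both sorts under each alternative, and the calls of Alox5, Trpm5, Gnat3, Pou2f3, Plcb2 and Chat held in each they were tested in; the dim filter left 14957 probe sets and did not test Chat. Leaving out each array in turn gave 6 of 7 genes called in odor pools and 6 to 7 in vehicle pools, Il25 being the one lost, and 0 of 7 for the odor comparisons. The replicate block changed no call other than that of Il25 in odor pools (adjusted p = 0.0356 by pool and 0.0205 by number, range over its alternatives 0.0205 to 0.278), whose value of -0.99 it left as it was. Over all probe sets, array medians set equal gave 15107 calls against 5167 in odor pools and 15011 against 4691 in vehicle pools and moved the median difference from 0.13 and 0.11 to 0.46 in both. Odorant receptor medians set equal gave 3275 in odor pools, 17 against 11 for odor in GFP- cells and 22 against 14 for the change of the sort difference, and array weights gave 19 for odor in GFP- cells. Leaving out an array gave 3913 to 5946, 3936 to 4849, 8 to 17 for odor in GFP+ cells, 7 to 15 in GFP- cells and 13 to 18. The 8 came without GFP+ odor replicate 1 or 2, 10 without GFP+ vehicle replicate 2 or 4, and the 7 without replicate 2 or 4 of either GFP- group. The cause of these shifts was not tested.

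Odor differences near 0 changed sign, none of them called: Gnat3 in GFP- cells to 0.0050 with array medians set equal, 0.0040 with quantile normalization and 0.066 with array weights, Il25 in GFP+ cells to -0.038 with quantile normalization, and with odorant receptor medians set equal Trpm5 in GFP+ cells to 0.0096 and Chat in GFP- cells to -0.046. Leaving out an array gave, in GFP+ cells, -0.11 to 0.16 for Il25, -0.34 to 0.16 for Trpm5 and -0.0024 to 0.21 for Alox5. In GFP- cells it gave -0.15 to 0.14 for Gnat3, -0.32 to 0.023 for Plcb2, -0.22 to 0.28 for Chat, -0.51 to 0.029 for Trpm5, -0.14 to 0.030 for Pou2f3 and -0.66 to 0.013 for Il25. For the change of the sort difference it gave -0.43 to 0.063 for Chat and -0.11 to 0.50 for Trpm5. Signals under the negative controls, as of Chat on all arrays, limit what the sizes show.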
